A study of Mus musculus with 6 samples.

Results

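The genes described here are those of the mitochondrial fission machinery around *Dnm1l*, chosen by name as the dynamin-related GTPase itself, its receptors on the outer membrane and further regulators of division. They were *Dnm1l*, *Fis1*, *Mff*, *Mief1*, *Mief2*, *Mtfp1*, *Mtfr1*, *Mtfr1l*, *Mtfr2* and *Gdap1*, which makes 10 of the 27179 genes counted in each library. RNA-seq was made from total RNA of quadriceps muscle, depleted of ribosomal RNA, from 3 control mice, called B, C and D, and from 3 miDrp1KO mice, called A, E and F. All were male mice on normal chow with floxed *Drp1* alleles (the control genotype is written f/f), treated with tamoxifen as adults, and the muscle was taken 3 weeks after deletion. In miDrp1KO mice the floxed alleles were recombined by the tamoxifen-inducible HSA-MerCreMer, which is driven by the human skeletal actin promoter and acts in muscle fibres only. Endothelial, immune and connective tissue cells of the same muscle therefore keep the gene, and in bulk tissue fewer cells of a type and less RNA per cell cannot be told apart. The question was whether the receptors and regulators of fission change at the RNA level when *Dnm1l* is deleted.

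Mitochondria divide when the cytosolic GTPase Drp1, the product of *Dnm1l*, is drawn to the outer membrane, assembles into rings and constricts the organelle. It has no membrane anchor of its own, so its recruitment rests on receptors in the outer membrane, and its activity is set by phosphorylation, SUMO and ubiquitin. In muscle fibres division is balanced against fusion by the mitofusins and Opa1, and it feeds the removal of damaged mitochondria.

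The libraries held between 13989588 (control C) and 62042255 (control D) counted reads, and ribosomal RNA genes took between 1.47% (miDrp1KO E) and 24.4% (miDrp1KO F) of them. Levels are given in CPM, a read count relative to the depth of its library. The 10 genes listed for fast muscle fibres summed to between 146703 and 168210 CPM in control libraries. They summed to between 72716 and 129022 CPM in miDrp1KO libraries, so the sum was lower in each. *Acta1*, *Ckm* and *Ryr1* on this list are expressed in slow fibres too, so the sum is not particular to fast fibres. Of the 10 genes, 9 had a log2 fold change below 0. By edgeR, 3 (*Myh4*, *Actn3* and *Ryr1*) were lower at an unadjusted p under 0.05, as were 6.22% of all tested genes. None passed an adjusted p of 0.05. The groups did not overlap in 5 of the 10, all lower in miDrp1KO, as in 10.3% of all tested genes. These were *Acta1*, *Myh4*, *Tnnt3*, *Tnni2* and *Ryr1*. Summed adipocyte markers were also lower in every miDrp1KO library (24.2 to 58.0 against 64.5 to 141 CPM), and those of satellite cells were higher (21.4 to 26.7 against 16.1 to 18.7 CPM). Gene by gene, the groups did not overlap in 2 of 5 adipocyte genes, as in 10.3% of all tested genes in that direction. They did not overlap in 1 of 4 satellite cell genes (*Chodl*), as in 7.67% of all tested genes in that direction. Of 8 genes listed for slow fibres, 7 had a log2 fold change above 0, and the median was 1.46. The gene below 0 was *Myh2* (−0.74), which encodes the myosin of type IIA fibres, a fast type. The groups overlapped in all 8 genes, and 0 had an unadjusted p under 0.05 by edgeR. CPM were scaled between libraries by the trimmed mean of M-values (TMM), and 16483 genes passed the filter on low counts and were tested. Across these, the quasi-likelihood test of edgeR, adjusted after Benjamini and Hochberg, called 2 genes at an adjusted p under 0.05, which is 0.0121% of the genes tested, and 10.9% had an unadjusted p under 0.05. The median log2 fold change of all tested genes was 0.017.

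*Dnm1l* lies on the minus strand of chr16:16312230-16358959 (GRCm38). The study's PCR assay for *Dnm1l* reads a coding stretch from exon 1 into exon 2 of 19 in the transcript ENSMUST00000096229. This stretch is shown because it marks the part of the mRNA the assay reads, whereas the counts used here pool all exons of the gene. It is written 5′ to 3′ in the sense of the mRNA, with the primer sites in capitals, and spans 135 bases at chr16:16346040-16358792 on the minus strand, the intron between the exons left out.
Dnm1l PCR stretch: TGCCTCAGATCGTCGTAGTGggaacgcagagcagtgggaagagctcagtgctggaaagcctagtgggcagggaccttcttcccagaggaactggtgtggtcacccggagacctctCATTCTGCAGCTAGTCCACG
The first 29 bases are from exon 1 and the rest from exon 2. Both sites are present in 4 of 7 annotated *Dnm1l* transcripts, and the site in exon 2 in 6 of 7. The antisense gene *Gm49521* overlaps *Dnm1l* by 243 exonic bases and covers the site in exon 1, and whether the counting used strand is not given in the sources used here.

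*Dnm1l* was lower in every miDrp1KO library than in every control library. Its level was 156, 114 and 140 CPM in the control libraries (B, C, D) against 70.6, 81.3 and 66.2 CPM in miDrp1KO A, E and F. The groups did not overlap, and the miDrp1KO mean was 53.2% of the control mean (72.7 ± 7.76 against 137 ± 21.2 CPM, SD, n = 3 in each group). Among all tested genes, 10.3% had every miDrp1KO library below every control library. The log2 fold change was −0.91 (SE 0.18, 95% interval −1.31 to −0.51), with an unadjusted p of 0.00039 and an adjusted p of 0.36 by edgeR's quasi-likelihood test. Only 12 genes had a lower p, and 131 had a lower log2 fold change. An exact permutation test over the 6 libraries gave p = 0.1, the smallest that 3 against 3 can give. With DESeq2, the study's tool, the log2 fold change was −0.90 and the adjusted p 0.0038, and 2.34% of the 4018 genes given an adjusted p by DESeq2 passed. *Dnm1l* fell past the threshold of DESeq2 and not past that of edgeR. The counts pool all exons, so whether transcripts of a recombined allele are part of the level that is left was not tested. The sum of the genes listed for fast fibres was lower in the same libraries, though only 5 of the 10 genes were lower in each of them. Their part in the *Dnm1l* value was not tested.

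**Figure D1:**
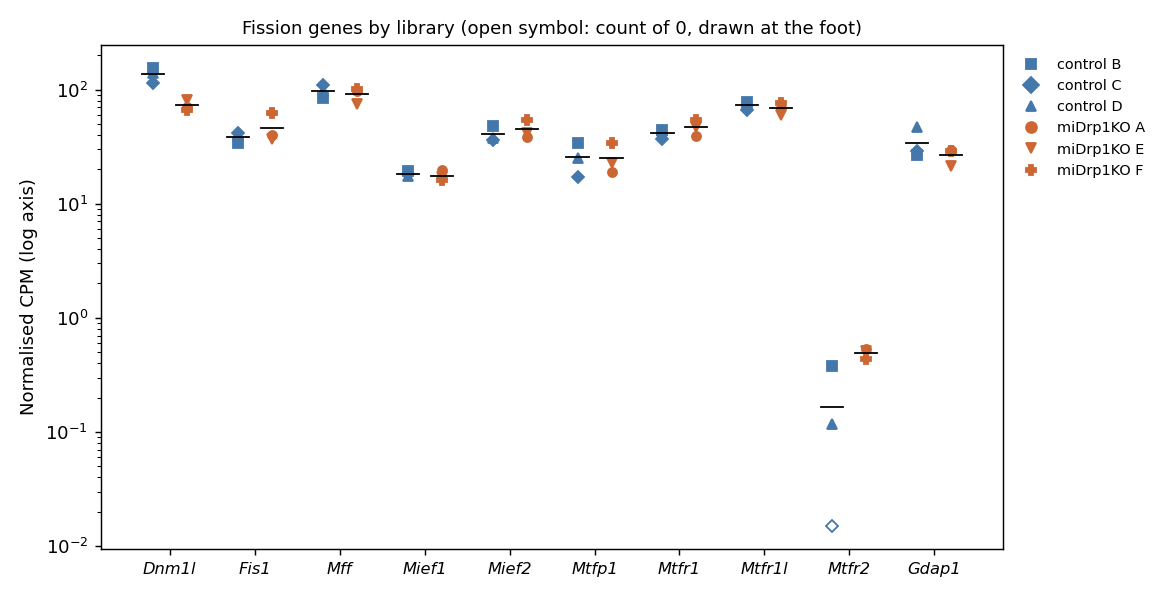
Normalised CPM (log axis) of the 10 fission genes in each of 6 libraries, with group means as bars; symbols mark replicates and an open symbol marks a count of 0. The 3 miDrp1KO libraries of *Dnm1l*, at 66.2 to 81.3 CPM, sit below the 3 control libraries, whereas the groups overlap in the 8 other genes with CPM above 1 in every library.

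No outer membrane receptor of Drp1 passed the test. *Mff*, the tail-anchored receptor that recruits Drp1 in most mammalian cells, was at 83.6, 109 and 96.7 CPM in control B, C and D and at 97.7, 75.4 and 100 CPM in miDrp1KO A, E and F. Its groups overlapped, with the lowest value of all 6 libraries in miDrp1KO E. Its log2 fold change was −0.08 (95% interval −0.48 to 0.32, adjusted p = 0.90 by edgeR). *Fis1*, the small tail-anchored protein that was described as a receptor first, was at 33.9, 42.0 and 39.4 CPM in control and at 39.7, 37.1 and 61.9 CPM in miDrp1KO libraries. Only miDrp1KO F stood above the control libraries, and the other miDrp1KO libraries lay within them. The log2 fold change of *Fis1* was 0.27 (95% interval −0.19 to 0.72, adjusted p = 0.67 by edgeR), and it was 0.020 without miDrp1KO F. It was 0.39 without miDrp1KO A and 0.41 without miDrp1KO E (95% interval −0.09 to 0.91).

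The adaptors MiD51 and MiD49, which bind Drp1 independently of Mff, are encoded by *Mief1* and *Mief2*. *Mief1* was at 19.4, 18.1 and 17.5 CPM in control and at 19.8, 17.0 and 16.1 CPM in miDrp1KO libraries, with groups that overlapped. It had the narrowest interval of the 10 genes, with a log2 fold change of −0.05 (95% interval −0.40 to 0.29, adjusted p = 0.93 by edgeR). *Mief2* was at 47.9, 35.9 and 37.6 CPM in control and at 38.6, 41.5 and 54.0 CPM in miDrp1KO libraries. Its highest value was again in miDrp1KO F and the groups overlapped, with a log2 fold change of 0.15 (95% interval −0.26 to 0.55, adjusted p = 0.81 by edgeR). It was 0.0085 without miDrp1KO F and 0.31 without control B.

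None of the further regulators passed the test. *Mtfp1*, an inner membrane protein also called MTP18, varied within both groups, with control libraries at 33.9, 17.3 and 25.2 CPM and miDrp1KO libraries at 19.1, 22.7 and 34.3 CPM. Its log2 fold change of −0.01 (95% interval −0.65 to 0.63, adjusted p = 0.99 by edgeR) has an interval wider than those of the receptors. *Mtfr1* was at 44.5, 36.7 and 43.6 CPM in control and at 39.3, 46.5 and 54.5 CPM in miDrp1KO libraries. *Mtfr1l*, its paralogue, was at 77.5, 65.6 and 74.5 CPM in control and at 68.5, 59.6 and 76.8 CPM in miDrp1KO libraries. Both overlapped between the groups, with log2 fold changes of 0.17 (95% interval −0.21 to 0.54) and −0.09 (95% interval −0.45 to 0.28). That of *Mtfr1* was 0.065 without miDrp1KO F and 0.30 without miDrp1KO A.

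*Gdap1*, an outer membrane protein of the glutathione transferase family known for its part in Charcot-Marie-Tooth neuropathy, was at 26.8, 29.1 and 47.0 CPM in control and at 29.5, 21.4 and 29.0 CPM in miDrp1KO libraries. Control D was the highest of the 6 libraries and the groups overlapped. The log2 fold change was −0.37 (95% interval −0.88 to 0.13, adjusted p = 0.58 by edgeR), and without control D it was −0.05.

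*Mtfr2*, the third member of the *Mtfr1* family, was near the limit of detection. It had 8, 0 and 7 reads in control B, C and D against 11, 21 and 9 reads in miDrp1KO A, E and F. All 3 miDrp1KO libraries stood above the control libraries, at 0.535, 0.515 and 0.432 CPM against 0.379, 0 and 0.117 CPM. Of all tested genes, 7.67% had every miDrp1KO library above every control library. The gene passed the filter on low counts only through the miDrp1KO libraries (3 of 3, against 0 of 3 control), so its direction is partly set by the filter. Its log2 fold change was 1.54 (95% interval −0.16 to 3.24, unadjusted p = 0.072 and adjusted p = 0.50 by edgeR), and it moved to 2.52 without control B and to 1.13 without control C. Summed markers of proliferating cells were higher in the same libraries, at 5.59 to 8.31 CPM against 2.33 to 4.55 CPM. Of these 4 genes, 2 (*Mki67* and *Top2a*) passed the filter on low counts. The groups did not overlap in these 2, as in 7.67% of all tested genes, and they overlapped in *Cdk1*. The part of these markers in the *Mtfr2* value was not tested.

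Read as a group, 0 of the 9 genes other than *Dnm1l* passed the adjusted threshold and 0 had an unadjusted p under 0.05 by edgeR, where 6.22% of all tested genes had such a p with lower and 4.68% with higher expression in miDrp1KO. DESeq2 called 0 of the 6 genes among them to which it gave an adjusted p; its independent filtering gave none to *Mief1*, *Mtfp1* and *Mtfr2*. The median log2 fold change of these 9 genes was −0.0096, beside 0.017 over all tested genes, with 4 genes above 0 and 5 below. Without *Mtfr2*, whose direction the filter partly sets, the median of the other 8 was −0.031, with 3 above 0 and 5 below. The upper bound of the 95% interval lay below a log2 fold change of 1 in 8 of 9 genes, all except *Mtfr2*, and the lower bound lay above −1 in all 9. A rise of 1 on the log2 scale is thus outside the interval of each of these 8 genes, while smaller rises, up to 0.72 in *Fis1*, are inside.

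**Figure D2:**
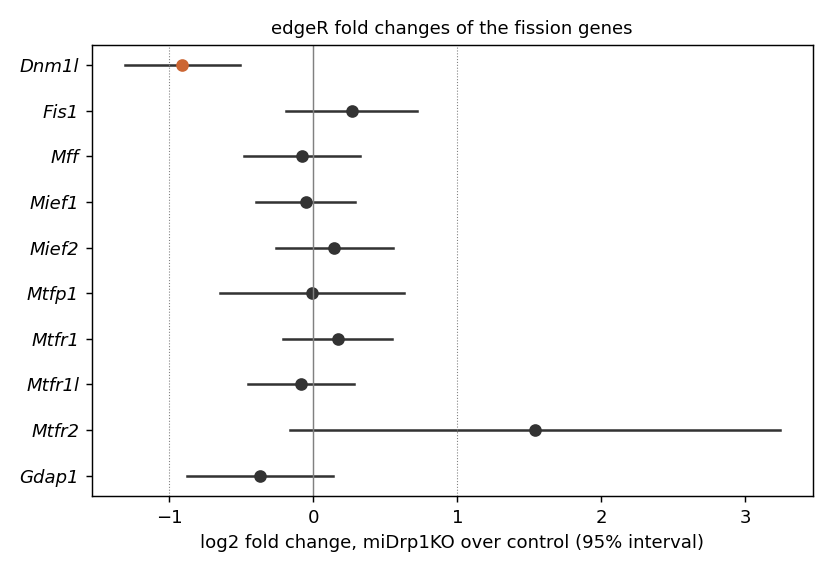
log2 fold change of miDrp1KO over control with its 95% interval for each fission gene, from edgeR on 3 against 3 libraries; dotted lines mark −1 and 1. The interval of *Dnm1l* (−1.31 to −0.51) lies below 0, and those of the 9 other genes include 0.

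Each gene was also set against *Dnm1l* within its own library. The ratio of reads to *Dnm1l* reads needs no scaling between libraries, and its difference holds the fall of *Dnm1l* itself. For *Fis1* it was 0.217, 0.368 and 0.281 in control B, C and D against 0.562, 0.457 and 0.934 in miDrp1KO A, E and F. All miDrp1KO ratios of *Fis1* were above all control ratios, and the mean fold was 2.20. The groups also did not overlap for *Mief1*, *Mief2*, *Mtfp1*, *Mtfr1* and *Mtfr1l*, with folds of 1.80, 2.07, 1.88, 2.09 and 1.76 (exact permutation test, p = 0.1 each, the smallest possible). For *Mff* and *Gdap1* the groups overlapped, with folds of 1.77 and 1.49 (exact permutation test, p = 0.2 each). *Mtfr2* was left out because control C had no read. Of the 16295 tested genes with a read in every library, 68.5% had every miDrp1KO ratio above every control ratio, and their median fold was 1.88. The 6 of 8 fission genes are close to that share, so these ratios show the fall of *Dnm1l* and nothing particular to its partners.

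**Figure D3:**
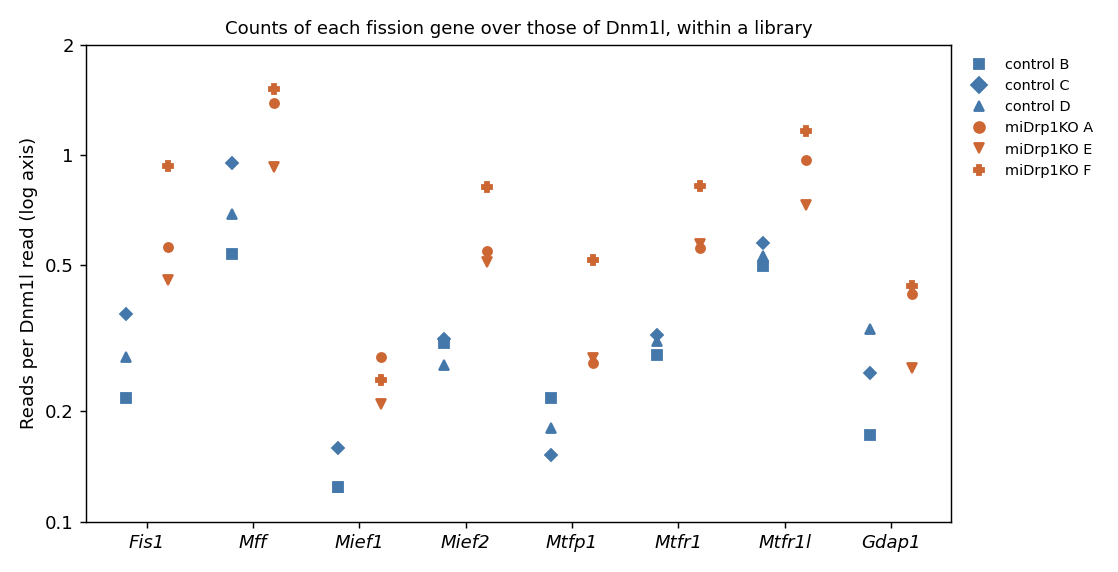
Reads of each fission gene per *Dnm1l* read within a library (log axis), 3 control and 3 miDrp1KO libraries, 1 symbol per library. The miDrp1KO libraries lie above all control libraries in 6 of the 8 genes, where 68.5% of all genes did so, and in *Mff* and *Gdap1* the groups overlap.

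Levels between genes were compared as CPM per kilobase of merged exons. In control muscle *Dnm1l* stood first at 26.3 CPM per kilobase, ahead of *Fis1* at 22.4 in 2 of 3 libraries, so this pair is not ordered in every library. *Mief2* (14.9), *Mtfp1* (14.7) and *Mtfr1l* (13.5) followed, and their order with the next gene changed between libraries for *Mief2* and *Mtfp1*. *Mff* (9.87) and *Mtfr1* (9.52) changed order between libraries, and *Gdap1* (4.44), *Mief1* (2.26) and *Mtfr2* (0.077) came last in all 3 libraries. In miDrp1KO muscle *Fis1* stood first at 27.0 CPM per kilobase in every library, and the mean of *Dnm1l*, at 14.0, came after those of *Mief2* and *Mtfp1*, its order with *Mief2*, *Mtfp1* and *Mtfr1l* changing between libraries. *Dnm1l* made up 23.8%, 20.4% and 22.4% of the summed per-kilobase level of the 10 genes in control B, C and D. Its share was 13.5%, 15.6% and 9.69% in miDrp1KO A, E and F. These shares did not overlap, and as with the ratios their difference holds the fall of *Dnm1l* itself. The merged length counts exons that not every transcript carries, and which transcripts these muscles use was not analysed here. Lengths are from GENCODE M21, and whether the exons used in counting were the same was not checked, so the order of genes may depend on it.

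Runs of 50 bases that a gene shares with transcripts of other genes were few. They made up 4.90% of *Dnm1l* and 6.27% of *Mtfr2*, 1.99% of *Mief1*, 1.45% of *Mff*, 0.915% of *Mtfr1* and 0% of the other 5 genes. Most of those of *Dnm1l* belonged to the antisense gene *Gm49521* and the gene *Gm13719*.

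The other genes of the pathway were taken from 5 lists with 57 genes, of which 53 were tested. By edgeR, 0 of 53 passed the adjusted threshold, 1 was higher and 5 were lower at an unadjusted p under 0.05, and the median log2 fold change was −0.16, with 17 above 0 and 36 below. Of all tested genes 4.68% were higher and 6.22% lower at that threshold, so the 6 of 53 are close to the 10.9% of the background. In the dynamin family, *Dnm2*, which was reported to act in the last step of scission, was at 37.6, 33.7 and 37.6 CPM in control and 30.6, 32.0 and 26.9 CPM in miDrp1KO libraries, with a log2 fold change of −0.28. Neuronal *Dnm1* was at 0.43 and *Dnm3* at 0.07, and 0 of these 3 genes had an unadjusted p under 0.05.

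Among 27 tested enzymes that modify Drp1 or Mff, 10 were above 0 and 17 below, with 1 higher and 4 lower at an unadjusted p under 0.05 by edgeR (4.68% and 6.22% of all tested genes). The one higher was *Cdk5*, a kinase reported to phosphorylate Drp1, at 5.35, 5.83 and 4.98 CPM in control and 6.37, 8.06 and 8.16 CPM in miDrp1KO libraries (log2 fold change 0.49, unadjusted p = 0.029 and adjusted p = 0.42). Its groups did not overlap, as in 7.67% of all tested genes in that direction. *Pink1*, the kinase that marks damaged mitochondria for removal, was lower in every miDrp1KO library, as 10.3% of all tested genes were (log2 fold change −0.49, unadjusted p = 0.027 and adjusted p = 0.41 by edgeR). Both were added after their values were seen. *Prkaca*, the catalytic subunit of protein kinase A, which phosphorylates Drp1 at an inhibitory site, had a log2 fold change of −0.38 with groups that did not overlap (unadjusted p = 0.040 and adjusted p = 0.44 by edgeR). *Ppp3ca*, the calcineurin subunit that removes that phosphate, had one of −0.56 with groups that overlapped (unadjusted p = 0.043 and adjusted p = 0.45 by edgeR). *Marchf5*, a mitochondrial ubiquitin ligase given in the files under the symbol 5-Mar, had the lowest p of this list, with 64.3, 62.5 and 72.5 CPM in control and 53.0, 46.2 and 51.3 CPM in miDrp1KO libraries (log2 fold change −0.41, unadjusted p = 0.023 and adjusted p = 0.40 by edgeR). *Akap1*, the anchor of protein kinase A at the outer membrane, had a log2 fold change of −0.47 with groups that overlapped. The values of *Pgam5* (0.10), *Camk2d* (−0.16), *Prkaa2* (−0.19), *Mul1* (0.01) and *Senp5* (−0.04) were all within 0.2 of 0 on the log2 scale, and none of these had an unadjusted p under 0.05.

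Of 15 tested partners at the endoplasmic reticulum, actin, lysosomes and Golgi, 4 were above 0 and 11 below, and 0 had an unadjusted p under 0.05. *Inf2* and *Spire1*, actin nucleators at contacts with the endoplasmic reticulum, had log2 fold changes of 0.28 and −0.28, the motor gene *Myh9* had −0.48, and *Stx17* and *Tbc1d15* had −0.35 and 0.09. In the list of peroxisomal fission genes, *Acbd5*, which tethers peroxisomes to the endoplasmic reticulum, had the lowest p and was at −0.29 on the log2 scale (unadjusted p = 0.10 by edgeR).

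The fusion list held the lowest p of the pathway. *Mfn2*, an outer membrane mitofusin that also tethers mitochondria to the endoplasmic reticulum, was at 327, 176 and 235 CPM in control B, C and D and at 121, 138 and 130 CPM in miDrp1KO A, E and F. Every miDrp1KO library lay below every control library, as in 10.3% of all tested genes, with a log2 fold change of −0.92 (95% interval −1.43 to −0.42, unadjusted p = 0.0020 and adjusted p = 0.36 by edgeR). DESeq2 gave *Mfn2* an adjusted p of 0.022, which became 0.055 without its independent filtering. *Mfn1* and *Opa1* had log2 fold changes of −0.31 and −0.25, with groups that overlapped. The sum of the genes listed for fast fibres was lower in the same libraries, though only 5 of the 10 were lower in each of them. Their part in the values of *Mfn2* was not tested.

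**Figure D4:**
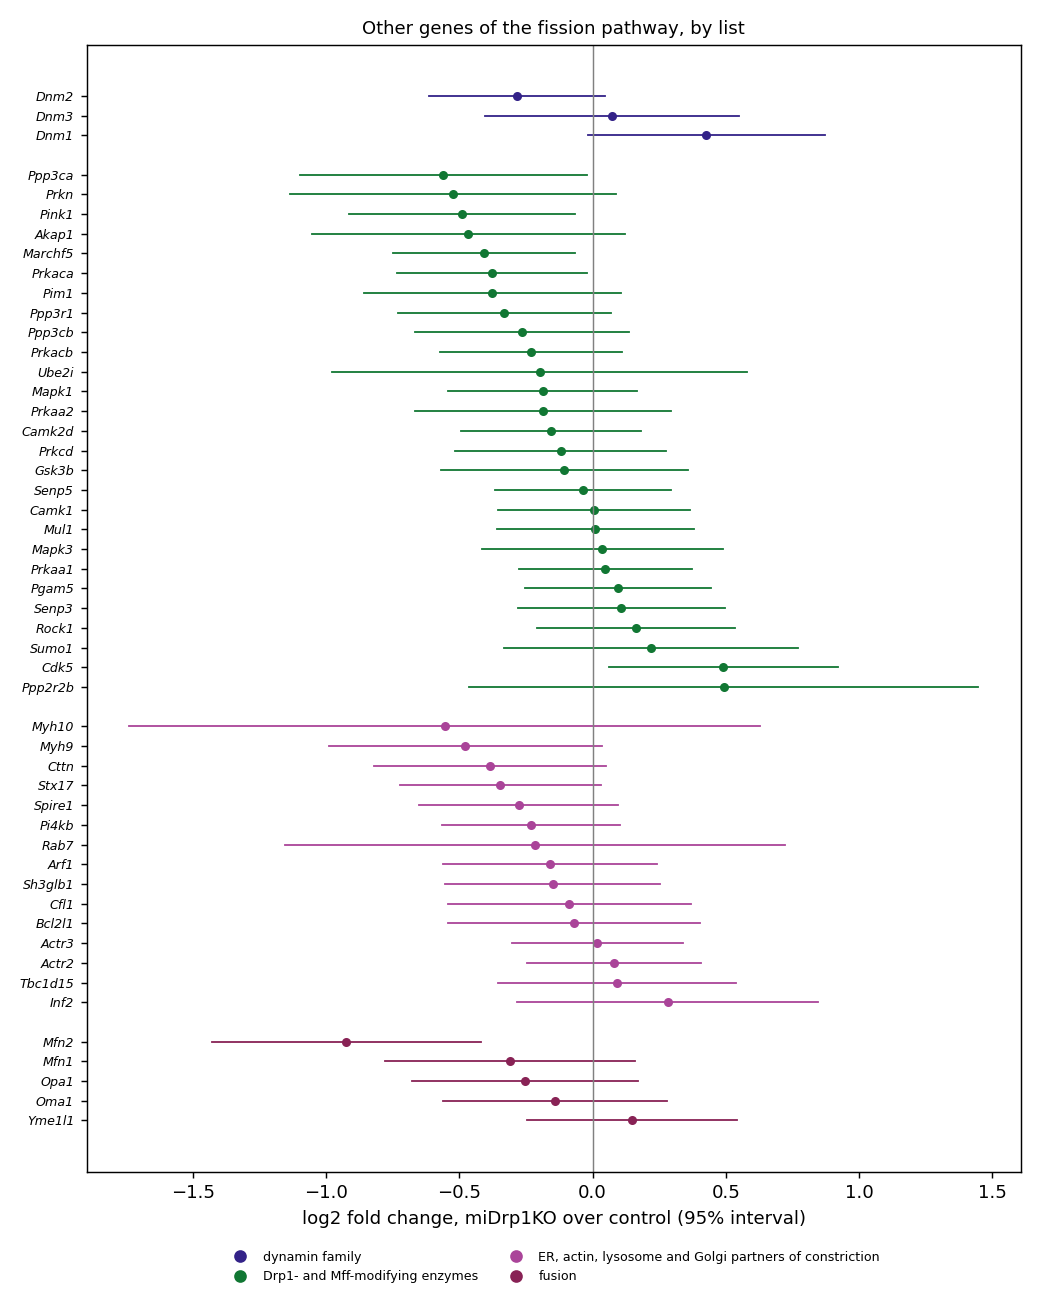
log2 fold change of miDrp1KO over control with its 95% interval for the 50 tested genes of 4 of the other pathway lists, coloured by list; peroxisomal fission genes are not drawn. *Mfn2* at −0.92 lies farthest from 0.

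Over the 6 libraries, the genes whose log2 CPM was most like that of *Dnm1l*, among 13563 genes with a mean of at least 1 CPM, were *Arhgap20*, *Coa4*, *St3gal2*, *Nlrx1* and *Fam234a* (Pearson's r from 0.987 to 0.991). The most opposite were *1110059E24Rik*, *N4bp2l2* and *Ptpn7* (r from −0.998 to −0.994). These r describe 6 points that form 2 groups, so a gene that differs between the groups scores high. None of the other fission genes was close, since r with *Dnm1l* ranged from −0.61 (*Fis1*) to 0.40 (*Gdap1*).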

How the data were processed

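Quadriceps RNA was sequenced after ribosomal depletion. The authors aligned reads to GRCm38 and counted them per gene with Rsubread, and the deposited values are raw counts, 1 file per library, keyed by Entrez gene ID. The deposited counts were used as they stand, with 0 columns left unused. Of 27179 genes, 874 have no symbol. Whether counting used strand, how reads with several matches were counted, and which library went into which sequencing pool are not given in the sources used here. GEO labels gave the groups. Mice differ between libraries.

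The main test was edgeR 4.0.16 (filterByExpr, TMM, quasi-likelihood fit with the robust option, p-values adjusted by Benjamini-Hochberg over 16483 genes, R 4.3.3) on 3 miDrp1KO and 3 control libraries. Intervals are 95%. The alternatives were DESeq2 1.42.0 with and without independent filtering (the same filtered genes), limma 3.58.1 voom, RLE and upper quartile scaling, no filter, at least 10 counts in every library, ribosomal RNA genes and *Lars2* left out, covariates for the ribosomal RNA share or a slow fibre score, and leaving out each library. The slow fibre score was the mean log2 CPM of the 8 genes listed for slow fibres, *Myh2* among them. DESeq2 on all genes with a count was added after the data were seen. Single values over libraries were tested by exact permutation (20 arrangements). Named genes were the 10 members, 19 pathway genes fixed by role, the lowest p of each list, any list gene past the adjusted threshold, and the genes most like *Dnm1l*; 1 of the 19 is not reported here. *Cdk5* and *Pink1* fall outside this rule and were named after their values were seen. The members and lists were chosen with earlier results of these data known. The edgeR fit was tested on simulated counts, and the other steps were not. Coordinates, exons and transcripts are from GENCODE M21 on GRCm38. The precision is set by 3 libraries a group and depths of 13989588 to 62042255 reads, where 3 reads correspond to 0.0500 to 0.219 CPM. Counting error only is covered by that floor.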

Additional observations from a re-analysis of the deposited data

How the results depend on the processing

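*Dnm1l* was lower in all 17 alternatives, and passed the adjusted threshold in 3, all DESeq2. It was −0.90 with DESeq2 and without its independent filtering, and −0.93 with DESeq2 on all genes with a count, which was chosen after seeing the data. Leaving out 1 library gave −1.05 to −0.79, and the adjusted p ranged from 0.0023 to 0.88 over the alternatives. The number of pathway genes past the adjusted threshold rose to 1 with DESeq2 and with DESeq2 on all genes with a count (*Mfn2* in each). Without independent filtering DESeq2 gave *Mfn2* an adjusted p of 0.055. Of the other 9 fission genes, 0 passed the adjusted threshold wherever an adjusted p was given. None was given to *Mief1*, *Mtfp1* and *Mtfr2* by DESeq2 with independent filtering, nor to *Gdap1* when it ran on all genes with a count, and *Mtfr2* was not tested with at least 10 counts in every library. The number with an unadjusted p under 0.05 was 1 with limma voom and 1 without control B (0 to 1 over the libraries left out), in both cases *Mtfr2*. In the main test 10.9% of all tested genes had such a p, and the filter on low counts partly set the direction of *Mtfr2*. The median of these 9 genes ranged from −0.0061 to 0.21 when 1 library was left out.

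Small fold changes changed sign. *Mtfp1* was 0.0032 with DESeq2 with or without independent filtering, 0.0021 with RLE, 0.084 with upper quartile scaling, 0.0015 with no filter, 0.035 with at least 10 counts in every library and 0.034 without ribosomal RNA genes. It was between −0.26 and 0.27 when 1 library was left out. *Mff* was 0.012 with upper quartile scaling and 0.022 with the slow fibre covariate, and −0.15 to 0.042 over the libraries left out. *Mief1* was 0.033 with upper quartile scaling and −0.12 to 0.027 over the libraries left out. *Mtfr1l* was 0.0029 with upper quartile scaling and −0.17 to 0.0035 over the libraries left out. Without a change of sign, the slow fibre covariate gave −0.25 for *Mtfp1*, 0.049 for *Mtfr1* and 0.021 for *Mief2*. Upper quartile scaling and no filter moved the median of all genes to 0.11. The cause of these changes was not tested. No paired analysis was made because the labels used here pair no control mouse with a miDrp1KO mouse.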
